A study of Mus musculus with 96 samples.

Results

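The 39 genes described here encode the complement and coagulation proteins that liver secretes into blood, out of 24066 genes read from the tables. They were taken as a named list, 14 of coagulation, 10 of inhibitors and fibrinolysis and 15 of complement, and each was found on 1 entry in all 8 tables. Poly(A) RNA of livers of C57BL/6J mice was sequenced in 96 libraries, 12 for each of 8 arms and 3 for each of the 4 times of day in an arm. The times were ZT0, ZT6, ZT12 and ZT18, where zeitgeber time (ZT) is the number of hours since lights on. Fetuses and pregnant mothers were studied under a light schedule that was advanced by 8 h every 5 days of pregnancy (shifted) or under a fixed cycle of 12 h light and 12 h dark (control). Adult male offspring of shifted or of control mothers ate a high-fat or a low-fat diet for 12 weeks from the age of 4 weeks. The labels leave unsaid how far gestation had gone, and whether fetal livers were pooled or of 1 sex. They also do not say which mother or litter a fetus or male came from. Whether the 3 libraries of a group are separate animals is not given either, so the p-values measure the spread between these libraries.

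Hepatocytes make nearly all of these proteins and release most of them as inactive precursors. In coagulation a chain of serine proteases with cofactors ends in thrombin, which turns soluble fibrinogen into fibrin, while antithrombin, the protein C pathway and plasmin hold the clot in check. Complement is started by recognition proteins such as C1 and the mannose-binding lectins, passes through C3 and ends with a membrane pore built from the terminal components C5 to C9. Many of the genes belong to the acute phase response, and their transcription in liver is known to depend on the HNF1, HNF4 and C/EBP families.

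Values are FPKM, fragments normalised to transcript length and library size by the authors, divided here by a factor per library that was set over all 96 libraries. They are length-normalised levels without counts, so the depth of a library is unknown and no counting interval is given. Differences were fitted in limma on log2(FPKM + 1) after scaling within the libraries of the fit, adjusted over all genes tested, and called at an adjusted p under 0.05. Every one of the 39 members passed the filter on low values in each comparison. Liver identity was checked on 11 hepatocyte markers (Alb, Apoa1, Ttr and others), whose summed median was 80860 to 107900 FPKM in the 4 offspring arms, 43880 in shifted and 52400 in control fetuses, and 183200 in both arms of mothers. The sum of 7 erythroid markers had a median of 2191 in shifted and 1968 in control fetuses, against 38.9 and 37.8 in shifted and control mothers. Fetal liver is known as a site of blood formation. In bulk tissue, fewer cells of a type and less RNA per cell cannot be told apart. Because every arm was deposited separately, effects of table and of arm cannot be told apart. In 5 offspring libraries the median correlation to the other libraries of the arm was under 0.95, the lowest being 0.882 in high-fat control at ZT0.

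The 39 members together took a median of 3.73% of all FPKM in shifted and 4.61% in control fetuses, 5.24% and 5.22% in shifted and control mothers, 2.83% and 2.69% in high-fat offspring of shifted and control mothers, and 3.20% and 2.85% in the low-fat ones. Ahsg, which encodes the mineral-binding plasma glycoprotein fetuin-A, was the most abundant member in each arm, with medians from 3342 FPKM in high-fat shifted offspring to 11560 in control mothers. The fibrinogen chain Fgb had medians between 1600.0 and 3377 FPKM. Low throughout were Masp1, a protease of the lectin pathway, with medians over the 8 arms between 4.30 and 22.6 FPKM, and Pros1, the protein S gene, between 5.12 and 15.3. The heat map of medians shows that C6, C9 and C4bp, at a few FPKM in fetuses, changed their place between stages most plainly.

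**Figure D1:**
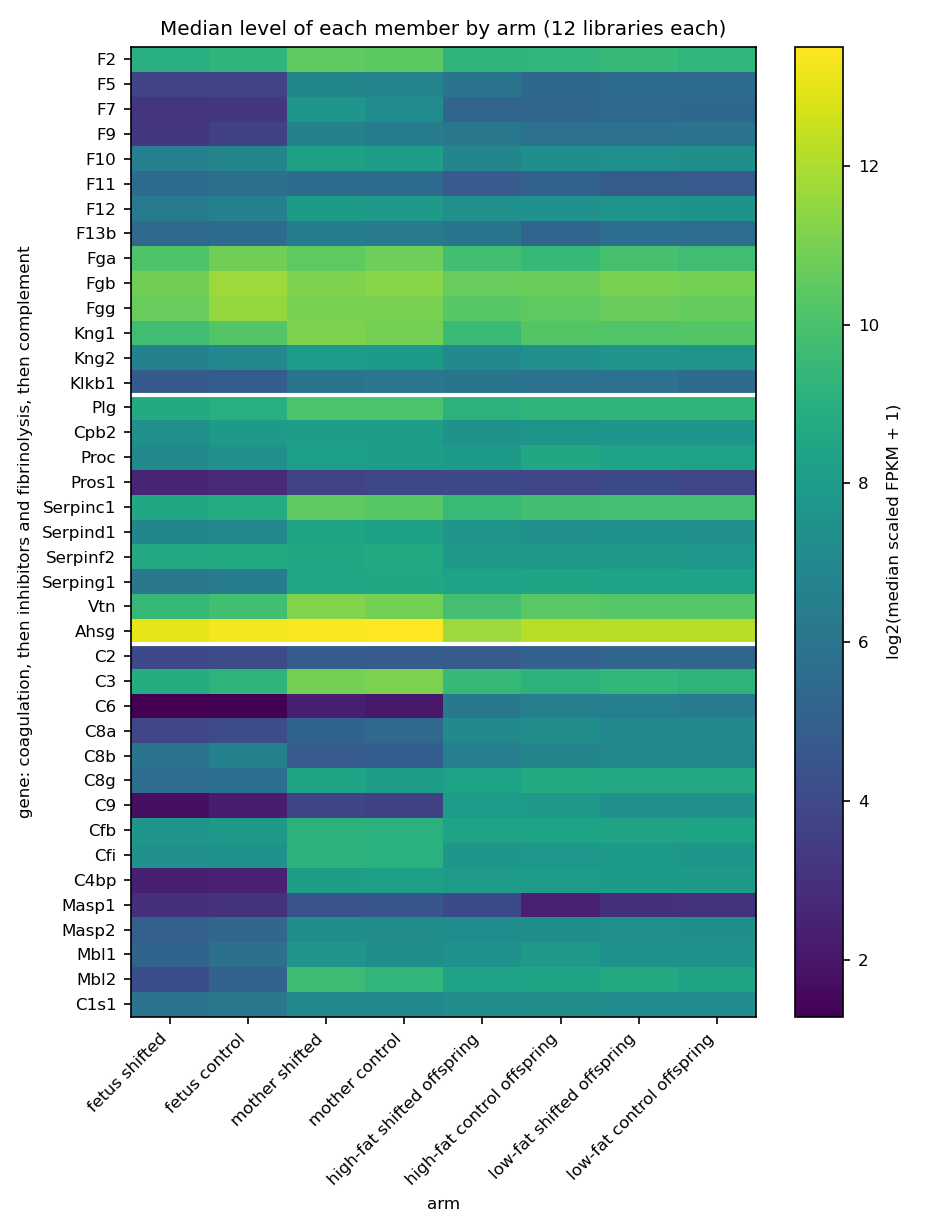
Median level of each of the 39 genes (rows) in the 8 arms (columns), as log2(median scaled FPKM + 1) over 12 libraries. Ahsg and the fibrinogen chains are bright in every column, C4bp, Mbl2 and F7 are dark in fetuses, and C6 and C9 are dark in fetuses and mothers and bright in male offspring.

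Fibrinogen is built from 3 chains whose genes lie side by side on chromosome 3 of mm10, in the order Fgg (83007724 to 83015049, plus strand), Fga (83026076 to 83033627, plus strand) and Fgb (83040141 to 83049863, minus strand). Between Fgg and Fga are 11026 bases and between Fga and Fgb 6513 bases, in the GENCODE M21 annotation. Their promoters are shown because the chains moved together across libraries. Each runs 5′ to 3′ from 250 bases before to 50 bases after the RefSeq start on the strand of the gene (GRCm38.p6), chr3:83025903-83026202 (+), chr3:83049814-83050113 (-) and chr3:83007474-83007773 (+), and capitals mark matches to 6 motifs searched on both strands.
Fga: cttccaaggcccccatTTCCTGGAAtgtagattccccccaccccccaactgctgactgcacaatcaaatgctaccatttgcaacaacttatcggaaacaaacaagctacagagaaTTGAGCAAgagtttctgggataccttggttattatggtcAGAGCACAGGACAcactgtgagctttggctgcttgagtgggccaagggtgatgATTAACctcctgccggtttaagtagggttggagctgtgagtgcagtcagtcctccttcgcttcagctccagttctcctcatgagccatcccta
Fgb: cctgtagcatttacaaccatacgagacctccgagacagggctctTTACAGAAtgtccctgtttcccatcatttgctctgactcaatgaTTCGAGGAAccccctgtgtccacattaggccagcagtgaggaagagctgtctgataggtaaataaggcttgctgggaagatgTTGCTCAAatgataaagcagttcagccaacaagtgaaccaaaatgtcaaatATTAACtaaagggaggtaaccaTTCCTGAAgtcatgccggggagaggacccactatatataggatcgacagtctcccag
Fgg: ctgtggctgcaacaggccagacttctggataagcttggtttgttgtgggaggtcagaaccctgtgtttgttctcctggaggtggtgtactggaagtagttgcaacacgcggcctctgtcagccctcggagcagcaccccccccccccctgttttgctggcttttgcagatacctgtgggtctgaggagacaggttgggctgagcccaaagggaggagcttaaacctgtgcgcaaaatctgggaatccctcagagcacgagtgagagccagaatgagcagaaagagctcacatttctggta
The motifs were the E-box CACGTG and the D-box TTANGTAA of the clock, C/EBP as TTNCNNAA, an HNF1 half-site as GTTAAT, HNF4 as a pair of AGNNCA half-sites 1 base apart and STAT3 as TTCNNNGAA. Fga held a STAT3 match 234 bases upstream of its start, a C/EBP match at 135, an HNF4 match at 96 and an HNF1 half-site at 43. Fgb held C/EBP matches at 206, 80 and 7 bases upstream, a STAT3 match at 162 and an HNF1 half-site at 29, and no match stood in these 300 bases of Fgg. No 2 matches overlapped in these promoters, although any D-box match is also a C/EBP match. A promoter was found for 31 members, all but Serping1, Proc, C2, Cfi, Masp1, Kng1, Plg and Cfb. The HNF1 half-site was in 8 of the 31 (C4bp, C8a, C8b, F13b, F2, Fga, Fgb and Vtn), against 7.1% of all 32851 promoters of that length. C/EBP was in 19 of 31, against 40.7% of all, STAT3 in 7 against 8.3%, and HNF4 in 5 against 2.8%. The D-box was in 1 of the 31, F13b, against 2.3% of all, and the E-box in none, against 7.2% of all. A match describes letters in a window and is not a bound site.

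Across libraries the 3 chains moved almost as 1. After the means of arm and time were removed, Fgb and Fgg correlated at r = 0.96 in 48 offspring libraries, 0.97 in 24 libraries of mothers and 1.0 in 24 of fetuses (Spearman 0.91, 0.93 and 0.99). Fga correlated with Fgb at r = 0.89, 0.96 and 0.99 and with Fgg at 0.88, 0.98 and 0.99 (Spearman 0.87, 0.94 and 0.99, and 0.82, 0.94 and 0.99). Each p was 1e-05, the smallest that 100000 permutations of libraries within groups can give, with adjusted p of 1.4e-05 to 2.3e-05 over the 7 pairs of a stage. Without the 2 libraries farthest from the median of the first gene, r stayed between 0.77 and 0.91 in offspring and was 0.95 or more in mothers and fetuses. In fetuses the hepatocyte marker sum also ran widely, from 25830 to 65900 FPKM in shifted and from 24210 to 78650 in control libraries, and its part in these correlations was not tested.

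The other pairs of neighbours were correlated to differing degrees, and differences between pairs were not tested. Members on different chromosomes were not correlated, so these values do not set neighbours apart from other members. In control fetuses at ZT12, for example, Fgb had 810, 4418 and 4998 FPKM. Kng1, on another chromosome, had 496, 1394 and 1869 in the same libraries. The kininogen genes Kng1 and Kng2, which stand head to head 28382 bases apart on chromosome 16, correlated at r = 0.83 in offspring, 0.72 in mothers and 0.97 in fetuses (Spearman 0.85, 0.75 and 0.95, adjusted p 0.0027 at most, r without the 2 farthest libraries 0.65 or more). They are close copies of each other, and reads could be split between them. F7 and F10, in tandem 1498 bases apart on chromosome 8, correlated at 0.55 in offspring (adjusted p = 0.0054), 0.85 in mothers (0.00089) and 0.94 in fetuses (1.4e-05), with Spearman 0.46, 0.81 and 0.93 and r without the 2 farthest of 0.49, 0.76 and 0.92. The terminal complement genes C8a and C8b, tail to tail 11130 bases apart on chromosome 4, correlated at 0.69 in offspring (adjusted p = 1.4e-05) and 0.90 in fetuses (3.5e-05), with Spearman 0.68 and 0.84 and r without the 2 farthest of 0.66 and 0.88. In mothers C8a and C8b gave r = 0.51 and Spearman 0.34, which did not pass (adjusted p = 0.12 and 0.18, r = 0.34 without the 2 farthest). C2 and Cfb, only 85 bases apart on chromosome 17, correlated at 0.48 in offspring (adjusted p = 0.0051), 0.40 in mothers (0.085) and 0.71 in fetuses (0.0024), with Spearman 0.41, 0.49 and 0.66 and r without the 2 farthest of 0.51, 0.51 and 0.60.

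Fetal liver was compared with maternal liver under each schedule. With libraries scaled on all genes, most coagulation and complement transcripts were lower in fetuses, C4bp by most, and C8b alone was higher, while Fgg passed the test under neither schedule. On a scale set by hepatocyte markers most directions turned, as given after the genes. Of the 39 members, 36 were called under the shifted schedule as lower and 1 as higher, against 35 lower and 1 higher under the control schedule. Among all genes tested, 84.6% were called under the shifted and 85.7% under the control schedule, so a high count was the rule. Of these, 43.1% of genes were called lower and 41.4% higher under the shifted schedule and 43.9% and 41.8% under the control schedule. The members' median log2 change was -1.64 and -1.53, against -0.016 and -0.023 over all genes. The 11 hepatocyte markers had medians of -2.75 and -2.37, with 11 and 10 of 11 called lower.

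In complement, C4bp, the plasma inhibitor that speeds decay of the classical C3 convertase, had 2.66, 4.13 and 5.85 FPKM (lowest, median and highest of 12 libraries) in shifted fetuses, against 186, 277 and 410.2 in shifted mothers. In control fetuses it had 2.03, 4.21 and 8.09 FPKM, against 221, 288 and 410.2 in control mothers. The groups lay far apart under both schedules, with a log2 change of -6.03 (SE 0.13, adjusted p = 1.84e-19) for shifted and -5.98 (SE 0.15, adjusted p = 1.69e-18) for control. C4bp lies on chromosome 1 (130634773 to 130661632), minus strand, and its promoter (chr1:130661569-130661868, minus strand) is shown as that of the member with the largest fetal deficit.
C4bp: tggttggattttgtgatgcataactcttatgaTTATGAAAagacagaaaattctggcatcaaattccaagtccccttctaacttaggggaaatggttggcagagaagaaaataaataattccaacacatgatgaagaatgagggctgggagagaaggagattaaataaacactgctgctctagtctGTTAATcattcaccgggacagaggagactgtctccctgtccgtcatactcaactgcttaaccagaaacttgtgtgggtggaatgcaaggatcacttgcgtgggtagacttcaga
The capitals are a C/EBP match 218 and an HNF1 half-site 64 bases upstream of the start. Mbl2, a mannose-binding lectin, had 6.46, 17.6 and 69.6 FPKM in shifted fetuses, against 642, 804 and 981 in shifted mothers (log2 change -5.60, SE 0.30, adjusted p = 4.47e-13). Its fetal libraries thus spanned a wide range and all stood below the maternal ones. The other lectin, Mbl1, was less reduced, with 28.2, 35.7 and 59.6 FPKM against 128, 200 and 222 (log2 change -2.47, SE 0.12, adjusted p = 6.59e-14). Masp2, the lectin pathway protease that cleaves C4, changed by -2.53 (SE 0.10, adjusted p = 4.27e-15) under the shifted and -2.33 (SE 0.11, adjusted p = 5.64e-14) under the control schedule. C8g, the small gamma chain of C8, changed by -3.10 (SE 0.11, adjusted p = 8.54e-16) and -2.58 (SE 0.11, adjusted p = 2.15e-14).

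With libraries scaled on all genes, the chains of C8 differed in direction between fetuses and mothers. C8b, the chain through which C8 joins the growing pore, had 30.9, 62.0 and 114 FPKM in shifted fetuses, against 11.7, 26.6 and 42.1 in shifted mothers, and 35.9, 98.3 and 129 in control fetuses, against 21.0, 29.8 and 54.0 in control mothers. It was higher in fetuses by 0.97 (SE 0.24, adjusted p = 0.00103) and 1.12 (SE 0.19, adjusted p = 1.50e-05) on the log2 scale, with overlapping ranges, and was singled out after its values were seen. C8a, the chain that enters the membrane, went the other way, at 8.94, 15.6 and 23.6 FPKM in control fetuses and 31.1, 43.9 and 70.2 in control mothers (log2 change -1.72, SE 0.12, adjusted p = 3.23e-11). On the scale of hepatocyte markers C8a was higher in fetuses as well, at 0.90 under the shifted and 0.40 under the control schedule. C6, the first of the pore proteins among the members, had medians of 1.43 and 1.44 FPKM in shifted and control fetuses, against 4.00 and 3.32 in shifted and control mothers, so it was low in both. The log2 change of C6 was -1.0 (SE 0.07, adjusted p = 3.36e-11) under the control schedule and of Cfi, the protease that inactivates C3b, -1.85 (SE 0.09, adjusted p = 1.78e-13).

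In coagulation the largest deficit was in F7, the protease that starts clotting with tissue factor. It had 5.17, 7.68 and 12.9 FPKM in shifted fetuses, against 155, 210.1 and 294 in shifted mothers, and 5.11, 8.44 and 12.9 in control fetuses, against 71.3, 147 and 285 in control mothers. Its log2 change was -4.85 (SE 0.14, adjusted p = 2.23e-17) and -4.19 (SE 0.19, adjusted p = 3.19e-14), whereas that of its neighbour F10 was -2.01 and -1.65. F9 and F5, the protease and the cofactor whose loss gives haemophilia B and parahaemophilia in people, changed by -3.51 (SE 0.18, adjusted p = 3.38e-13) and -3.09 (SE 0.17, adjusted p = 5.09e-13) under the shifted and by -3.20 (SE 0.20, adjusted p = 3.58e-12) and -3.25 (SE 0.12, adjusted p = 1.10e-15) under the control schedule. F5 had 9.90, 12.8 and 17.8 FPKM in shifted fetuses, against 55.7, 116 and 161 in shifted mothers.

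In coagulation F11 and the fibrinogen chain Fgg had the smallest fitted changes. Fgg had 667, 1627 and 4242 FPKM in shifted fetuses, against 1169, 2107 and 3422 in shifted mothers, and 588, 2995 and 4635 in control fetuses, against 1554, 2101 and 2995 in control mothers, and was called under neither schedule (adjusted p = 0.102 and 0.494). The fetal libraries ran both below and above the whole maternal range. F11, the protease that activates F9, was called as lower under the shifted (-0.39, SE 0.15, adjusted p = 0.0196) but not the control schedule (-0.11, SE 0.16, adjusted p = 0.51), with medians of 46.1 and 53.9 FPKM in shifted and control fetuses, against 47.0 and 45.6 in shifted and control mothers. Among the inhibitors, antithrombin (Serpinc1) changed by -2.22 (SE 0.13, adjusted p = 2.47e-12) and -1.87 (SE 0.13, adjusted p = 2.21e-11), heparin cofactor II (Serpind1) by -1.54 (SE 0.07, adjusted p = 6.68e-14) and protein S (Pros1) by -1.38 (SE 0.09, adjusted p = 2.29e-11), those of Serpind1 and Pros1 being given under the control schedule. The plasmin inhibitor Serpinf2 changed least of the called members, by -0.24 and -0.33. Its call as lower did not hold under all of the scalings given below. Its medians were 400 and 418 FPKM in shifted and control fetuses, against 395 and 428 in shifted and control mothers. Klkb1, the prekallikrein gene, changed by -1.67 (SE 0.11, adjusted p = 1.38e-11), Vtn by -1.99 (SE 0.14, adjusted p = 6.22e-11) and Cfi by -1.98 (SE 0.14, adjusted p = 4.42e-11) under the shifted schedule.

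When libraries were scaled on the 11 hepatocyte markers instead of on all genes, the direction turned for most members. Then 28 members were higher and 6 lower in fetuses under each schedule, and the median of all genes moved to 1.82 and 1.58 in log2. The 6 that stayed lower were the same under both schedules. C4bp was at -3.68 and -3.95, Mbl2 at -3.13 and -2.71, and F7 at -2.42 and -2.09 for shifted and control. F9 was at -1.08 and -1.11, F5 at -0.63 and -1.12, and C8g at -0.57 and -0.40. Among the highest on that scale were C8b at 3.43 and 3.27, Serpinf2 at 2.30 and 1.87, F11 at 2.1 and 2.04, and Fgg at 2.06 and 2.0. Masp2, Serping1 (C1 inhibitor), C3 and C9 passed the test in neither direction under either schedule, with values between -0.16 and 0.20. This scale is relative to those 11 genes. With upper quartile scaling 33 members were lower and 1 higher under the shifted schedule and 31 and 1 under the control one, and with values as deposited 30 and 3, and 31 and 4, while the median of all genes was 0.184 and 0.198 under upper quartile scaling and 0.665 and 0.561 as deposited. Of the members called with scaling on all genes, 4 under each schedule had the other sign with upper quartile scaling or as deposited.

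**Figure D2:**
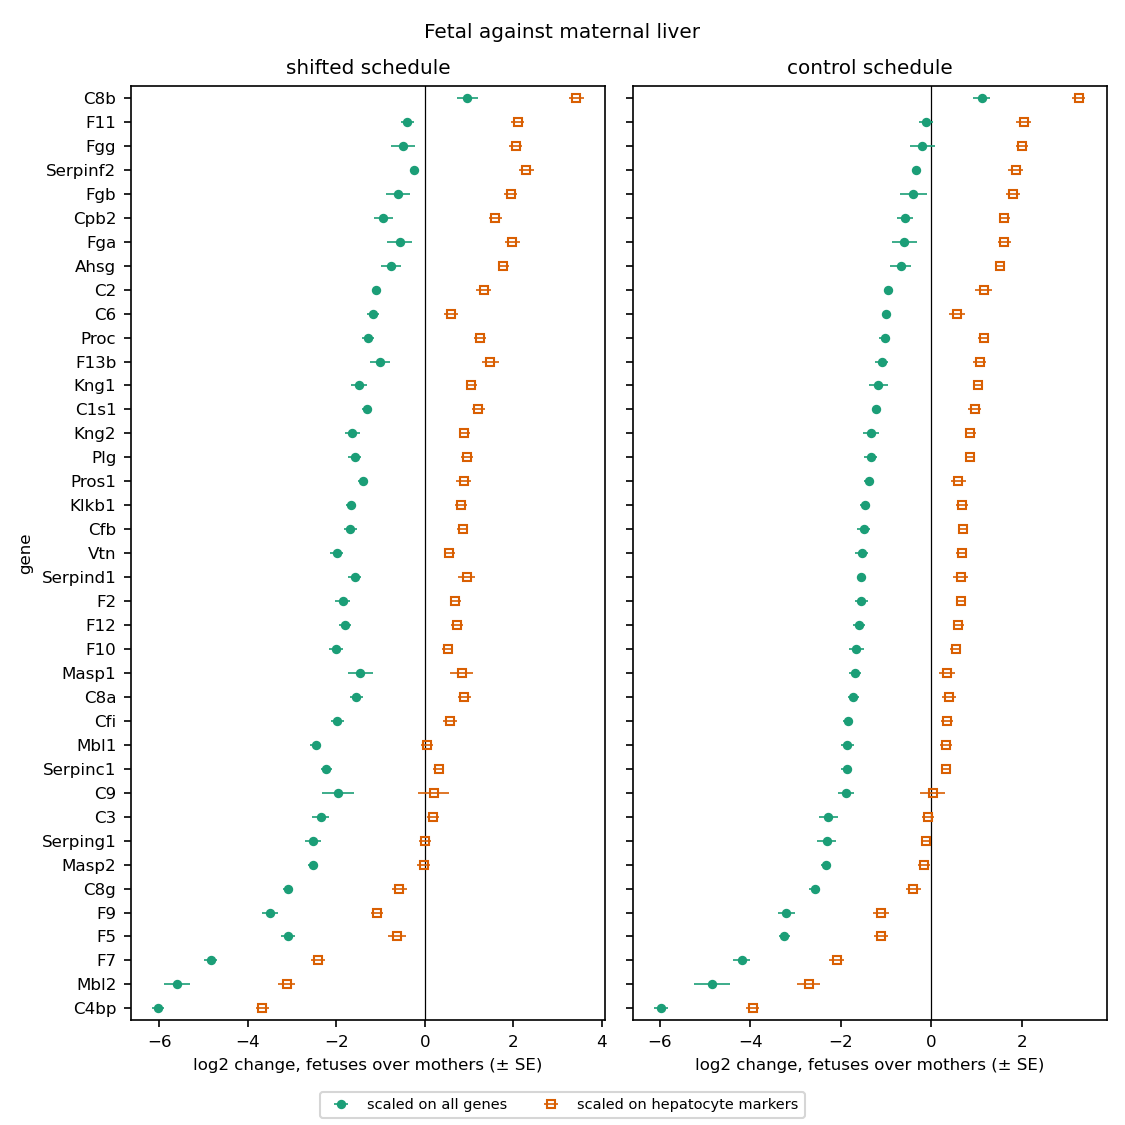
Log2 change of each member in fetuses over mothers with its SE, for the shifted (left) and the control schedule (right), with libraries scaled on all genes (filled circles) or on 11 hepatocyte markers (open squares). On the first scale all but C8b lie left of 0, and on the second only the 6 lowest genes, from C8g to C4bp, pass the test as lower.

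Male offspring had far more RNA of the pore-forming complement genes than the pregnant mothers. Levels are given without a test, since the genes were picked after the levels were seen and since sex, pregnancy, age, diet and table cannot be told apart. C6 had 51.0, 88.8 and 140.3 FPKM in low-fat shifted offspring, against 1.96, 4.00 and 6.08 in shifted mothers, and 46.4, 78.5 and 108 in low-fat control offspring, against 2.73, 3.32 and 4.47 in control mothers. The ratio of medians was 22.2 and 23.6. C9, which polymerises into the wall of the pore, had 83.5, 176 and 314 FPKM in low-fat shifted offspring, against 2.1, 13.5 and 48.3 in shifted mothers, and 107, 176 and 289.5 in low-fat control offspring, against 5.98, 11.8 and 21.4 in control mothers. C8b had 82.5, 126 and 205 FPKM in low-fat shifted offspring, and 66.1, 121 and 201 in low-fat control offspring, a ratio of medians to mothers of 4.74 and 4.07. C8a had 96.1, 124 and 210.5 FPKM in low-fat shifted and 108, 131 and 212 in low-fat control offspring, a ratio of 3.39 and 2.99. For these 4 genes no low-fat library of male offspring overlapped one of the mothers of the same schedule, also not in the values as deposited. On the high-fat diet C8b did overlap, with a lowest library of 41.5 FPKM in high-fat control offspring, against a highest of 54.0 in control mothers. The 4 genes were the only members whose low-fat male libraries all stood above the maternal ones, which 0.797% of all genes did under the shifted and 3.06% under the control schedule. The gamma chain, C8g, had medians of 408 and 404 FPKM in low-fat male offspring, against 344 and 275 in mothers, with overlapping libraries.

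C6 and C9 lie on the same chromosome, C6 at chromosome 15 (4727175 to 4814967) and C9 at chromosome 15 (6445327 to 6498751), both on the plus strand, and their promoters (chr15:4726960-4727259 and chr15:6445096-6445395) are shown as those of the largest ratios.
C6: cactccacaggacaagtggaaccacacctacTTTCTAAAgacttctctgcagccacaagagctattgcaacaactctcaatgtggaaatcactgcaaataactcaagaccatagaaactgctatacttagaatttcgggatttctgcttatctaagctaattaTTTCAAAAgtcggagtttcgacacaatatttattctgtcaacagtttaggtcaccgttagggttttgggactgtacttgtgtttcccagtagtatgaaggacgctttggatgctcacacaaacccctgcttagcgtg
C9: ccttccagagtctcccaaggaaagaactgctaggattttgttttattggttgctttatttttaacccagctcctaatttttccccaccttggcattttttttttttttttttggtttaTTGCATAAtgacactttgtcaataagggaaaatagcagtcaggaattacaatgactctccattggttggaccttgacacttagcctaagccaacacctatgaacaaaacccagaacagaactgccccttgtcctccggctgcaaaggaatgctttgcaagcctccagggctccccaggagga
Capitals mark C/EBP matches 219 and 87 bases upstream of the start of C6 and 132 bases upstream of that of C9, and none of the other motifs was found in these windows.

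**Figure D3:**
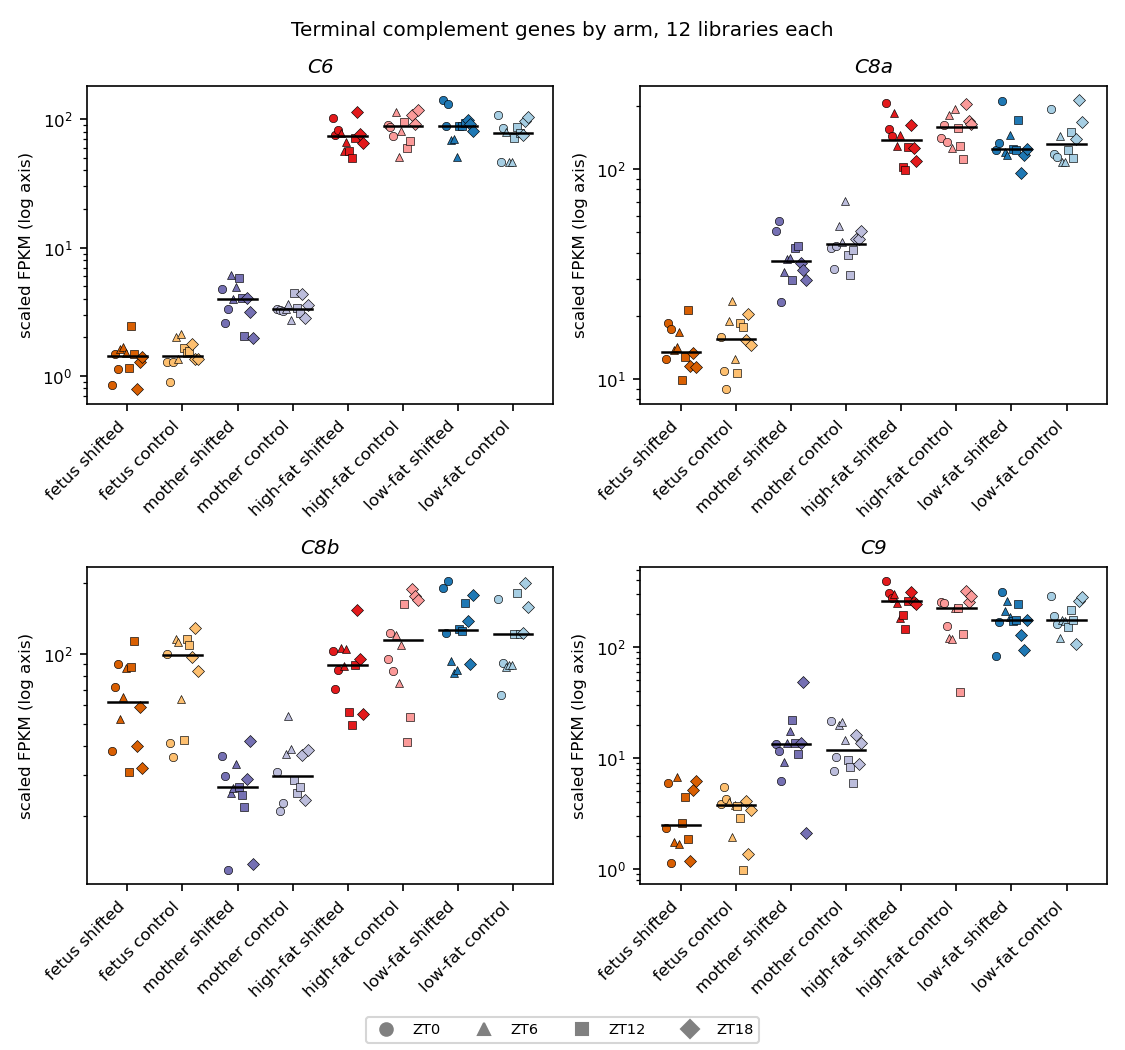
Scaled FPKM (log axis) of C6, C8a, C8b and C9 in each library of the 8 arms, with the shape giving the time of day and the bar the median of 12. For each gene every low-fat male library lies above every library of mothers of the same schedule, and on this scaling C8b alone has a higher median in fetuses than in mothers.

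In the other direction, 7 members stood wholly below the mothers in low-fat shifted offspring and 15 in low-fat control offspring, against 1.98% and 4.47% of all genes. All 7 were also among the 15, namely F7, C3, Cfi, Ahsg, F2, F10 and Vtn. F7 had medians of 44.2 and 40.1 FPKM in the offspring, against 210.1 and 147 in shifted and control mothers. C3, the central complement protein, had 661 and 608 FPKM, against 1999 and 2192, and thrombin's precursor F2 had 702 and 638, against 1451 and 1362. Fibrinogen overlapped, with Fgg medians of 1650.0 and 1550.0 FPKM, against 2107 and 2101. The hepatocyte marker sum was lower in males too, at medians of 98890 FPKM in low-fat shifted and 102900 in low-fat control offspring. It was 183200 in both arms of mothers, and its part in these counts was not tested.

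Few members were called for the maternal schedule in mothers, and none in fetuses or low-fat offspring. In mothers 2 of 39 were called, both higher and both complement genes, against 7.91% of all genes (3.49% higher and 4.42% lower). C8g had 278, 344 and 436 FPKM in shifted mothers, against 170.0, 275 and 340.2 in control mothers (log2 change 0.40, SE 0.10, adjusted p = 0.0227, 11 of 12 libraries in that direction). Mbl2 had 642, 804 and 981 FPKM, against 520.4, 644 and 831 (log2 change 0.26, SE 0.07, adjusted p = 0.0342, 11 of 12). Both pairs of ranges overlapped, and neither call held in the values as deposited (adjusted p = 0.0615 and 0.153), where the median of all genes was -0.068. The call of Mbl2 also ended in 10 of the 24 fits with 1 library left out. Endothelial markers were lower in shifted mothers for 10 of 10 genes, 6 of them called, with a summed median of 59.2 against 79 FPKM, and their part in these changes was not tested.

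In fetuses no member was called, against 3.78% of all genes (1.47% as lower), and 1 member had an unadjusted p under 0.05. The smallest p belonged to Mbl1 (log2 change -0.33, SE 0.16, adjusted p = 0.231), C2 (-0.14, SE 0.07, adjusted p = 0.262) and Masp2 (-0.26, SE 0.13, adjusted p = 0.266). All but 1 of the 39 fitted changes were negative, with a median of -0.19 against -0.007 over all genes. The hepatocyte markers were likewise negative in 11 of 11, with a median of -0.31 and none called, and their part in the members' direction was not tested. Mbl1 had 28.2, 35.7 and 59.6 FPKM in shifted fetuses, against 28.1, 53.7 and 73.9 in control fetuses. In low-fat offspring no member was called either, against 0.00921% of all genes, and 2 had an unadjusted p under 0.05. There Serpinf2 changed by 0.20 (SE 0.08, adjusted p = 0.568), C3 by 0.24 (SE 0.11, adjusted p = 0.624) and F7 by 0.19 (SE 0.10, adjusted p = 0.702).

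On the high-fat diet the offspring of shifted mothers differed from those of control mothers in 18 of 39 members, 7 higher and 11 lower. That share is close to the 48.1% of all genes called in this comparison (26.3% higher and 21.9% lower), so the count by itself sets the members apart in no way. The split depended on the scaling, with 8 higher and 5 lower under upper quartile scaling and 16 and 3 in the values as deposited, where the median of all genes was 0.208 and of the members 0.179. Under all 3 scalings 10 members were called in the same direction. Higher were F5, F13b, Fga, Serpind1, C3, C9 and Masp1, and lower were Proc, Kng1 and Vtn. Genes that were longer or poorer in GC tended to be higher in this comparison (Spearman rho with length 0.44 and with GC -0.31 over 10464 genes, 0.41 and -0.44 over the 39 members). With the trends on GC and length removed 7 members were higher and 10 lower, with C8g no longer called (-0.13, adjusted p = 0.202). The change of F5 was then 0.405, of Proc -0.42, of Vtn -0.28, of Mbl1 -0.26 and of Serpinc1 -0.49, all still called.

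Masp1 showed the widest gap. It had 5.33, 15.4 and 18.5 FPKM in high-fat shifted offspring, against 0, 4.30 and 8.65 in high-fat control offspring (log2 change 1.78, SE 0.27, adjusted p = 2.09e-06, 12 of 12 libraries in that direction), a 3.44-fold change on the scale of FPKM + 1. It is listed at 0 in 1 high-fat control library at ZT0, the library of lowest correlation, and the ranges overlapped. F13b, the carrier subunit of the enzyme that cross-links fibrin, had 51.6, 65.3 and 75.6 FPKM, against 9.69, 37.4 and 58.9 (log2 change 1.0, SE 0.19, adjusted p = 6.39e-05). F5 had 39, 62.8 and 68.8 FPKM, against 22.0, 39.6 and 45 (log2 change 0.68, SE 0.09, adjusted p = 7.09e-07). For both genes the ranges overlapped, but the median of the shifted libraries lay above the highest control library.

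Proc, the precursor of the anticoagulant protease that inactivates factors V and VIII, had 182, 248 and 297 FPKM in high-fat shifted offspring, against 309, 375 and 616 in high-fat control offspring (log2 change -0.69, SE 0.08, adjusted p = 3.81e-08), and no library of the 2 arms overlapped. Kng1, the source of bradykinin, had 623, 771 and 991 FPKM, against 870.3, 1188 and 1622 (log2 change -0.59, SE 0.08, adjusted p = 9.66e-07). Vtn had 850.3, 908 and 1210.0 FPKM, against 1119, 1333 and 1520.0 (log2 change -0.50, SE 0.07, adjusted p = 1.68e-06). All 12 shifted libraries lay below the control mean of their time for each of these 3 genes. Mbl1 (-0.41, SE 0.07, adjusted p = 3.27e-05) and C8g (-0.42, SE 0.09, adjusted p = 0.000522) were also lower. So were F10 (-0.36, SE 0.08, adjusted p = 0.000272), Serpinc1 (-0.28, SE 0.07, adjusted p = 0.00116), Kng2 (-0.33, SE 0.09, adjusted p = 0.00185) and C2 (-0.34, SE 0.10, adjusted p = 0.00428). These 4 lost the call with upper quartile scaling and all 6 lost it in the values as deposited. F11 and Ahsg were the remaining lower members. In the same arms 6 of 11 hepatocyte markers were called lower and 1 higher, with a summed median of 80860 FPKM in high-fat shifted and 107900 in high-fat control offspring, and their part was not tested.

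The difference between the 2 maternal effects was tested as an interaction of schedule and diet. It was called for 14 members, 3 with a positive and 11 with a negative value, against 24.2% of all genes (13.9% and 10.3%). Positive were Masp1 at 1.52 (SE 0.38, adjusted p = 0.00434), F13b at 0.96 (SE 0.27, adjusted p = 0.0105) and F5 at 0.64 (SE 0.13, adjusted p = 0.00128), and the most negative by p were Proc at -0.65 (SE 0.11, adjusted p = 0.000354), Vtn at -0.47 (SE 0.10, adjusted p = 0.00196), F10 at -0.46 (SE 0.11, adjusted p = 0.00347) and Kng1 at -0.50 (SE 0.12, adjusted p = 0.0035). Both upper quartile scaling and the values as deposited gave 4 positive and 1 negative call, with the median of all genes at 0.094 and 0.173, and F13b, F5, Masp1 and Proc were called under all 3 scalings. Among the 12 of smallest p, the interaction was lost with GC and length trends removed for C8g (-0.19, adjusted p = 0.27), C2 (-0.325, 0.0914) and Mbl1 (-0.25, 0.0847), while F5 was at 0.40, Proc at -0.42, Vtn at -0.27 and Serpinc1 at -0.46. Without the libraries of low correlation it was lost for C2 (adjusted p = 0.0764), C8g (0.0688), Mbl1 (0.0711) and F11 (0.0603). With no filter on low values it was lost for C2 (0.0571) and F11 (0.0713). Hepatocyte markers were called negative for 4 of 11 (median -0.33, 10 of 11 negative) and endothelial markers for 5 of 10 (median -0.36), against 10.3% of all genes, and their part was not tested. In low-fat offspring the medians of Masp1 were 6.95 FPKM for shifted and 7.47 for control, of Proc 318 and 331, and of F5 45.8 and 45.8. The high-fat control arm thus stood low for Masp1, F13b and F5, with shifted high-fat offspring above both low-fat arms in median.

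**Figure D4:**
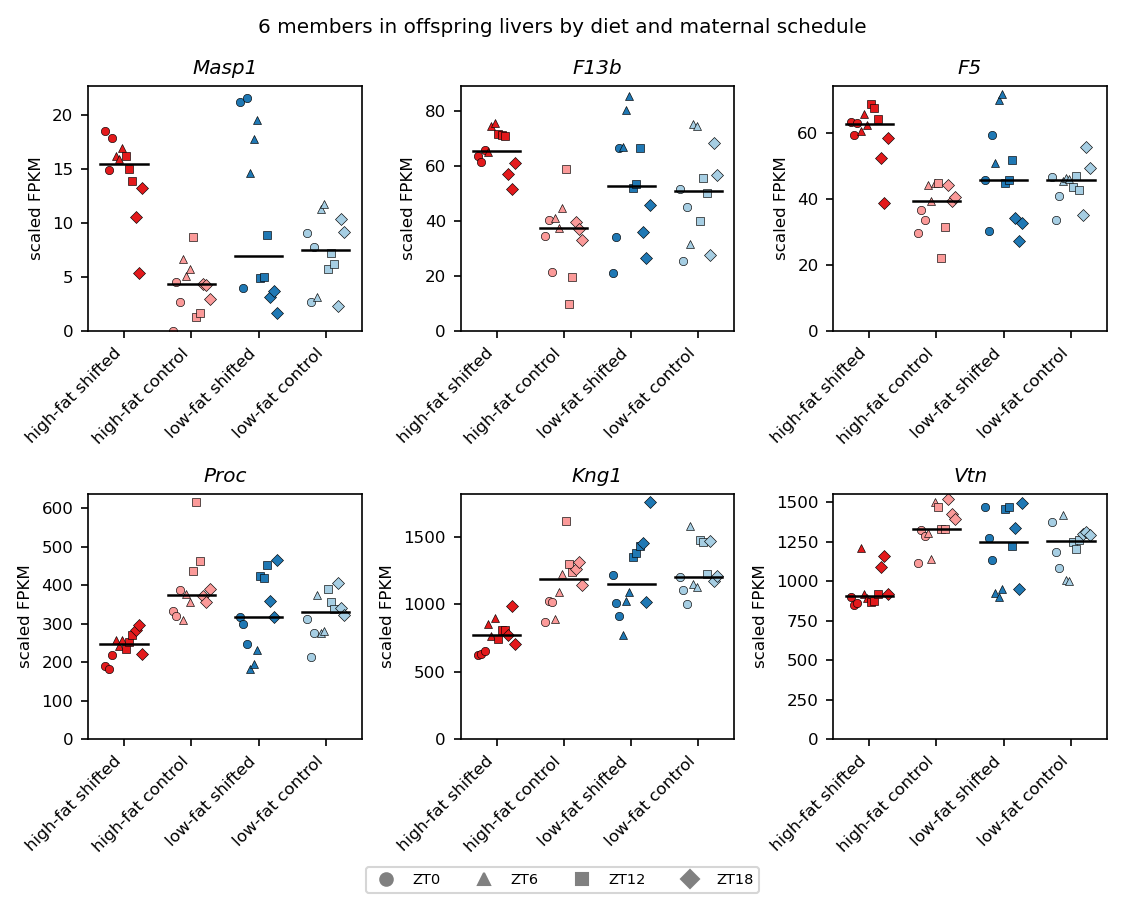
Scaled FPKM of Masp1, F13b, F5, Proc, Kng1 and Vtn in each library of the 4 offspring arms, with the shape giving the time of day and the bar the median of 12. Masp1, F13b and F5 are higher and Proc, Kng1 and Vtn lower in high-fat shifted than in high-fat control offspring, while the low-fat arms have similar medians.

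The diet was compared within each kind of mother. In offspring of shifted mothers 15 members differed, 3 higher and 12 lower on high-fat, against 23.2% of all genes (11.5% higher and 11.7% lower). Both kininogens were among the lowest in p, with Kng1 at 623, 771 and 991 FPKM on high-fat and 776, 1153 and 1764 on low-fat (log2 change -0.62, SE 0.08, adjusted p = 2.75e-06), and Kng2 changing by -0.48 (SE 0.09, adjusted p = 0.000144). F10 had 104, 117 and 149 FPKM on high-fat and 123, 171 and 262 on low-fat (log2 change -0.50, SE 0.08, adjusted p = 2.30e-05). C2, the protease of the classical C3 convertase, changed by -0.46 (SE 0.10, adjusted p = 0.000924), Ahsg by -0.45 (SE 0.11, adjusted p = 0.0041), and the C8 chain C8b by -0.60 (SE 0.18, adjusted p = 0.0133). Proc changed by -0.37 (SE 0.08, adjusted p = 0.000854) and Vtn by -0.33 (SE 0.07, adjusted p = 0.00141). F12, which starts the contact pathway, changed by -0.27 (SE 0.07, adjusted p = 0.00354) and Serpinc1 by -0.30 (SE 0.07, adjusted p = 0.00193). The call of F12 was lost with GC and length trends removed (-0.17, adjusted p = 0.14), with upper quartile scaling (0.0582) and as deposited (0.0816). Those of Vtn (-0.17, adjusted p = 0.0633, with GC and length trends removed) and Serpinc1 (adjusted p = 0.0534, with upper quartile scaling) were lost as well, and without these trends Proc was at -0.21, Ahsg at -0.27 and F5 at 0.24. Higher were F5 (0.40, SE 0.09, adjusted p = 0.00236), F9 and Masp1. Fgb, the β chain of fibrinogen, changed by -0.39 (SE 0.12, adjusted p = 0.0212), a call that was lost with upper quartile scaling (-0.38, adjusted p = 0.0746) and as deposited (-0.31, adjusted p = 0.104). Fgg was at -0.35 (adjusted p = 0.0638) and Fga at -0.10 (adjusted p = 0.731), and differences between the chains were not tested. Hepatocyte markers were called lower for 4 of 11 in this comparison, and their part was not tested. The split was 1 higher and 8 lower with upper quartile scaling and 4 and 9 as deposited.

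In offspring of control mothers the diet changed 3 members, 2 higher and 1 lower, against 14.5% of all genes (6.73% higher and 7.82% lower). Mbl1 had 179, 226 and 284 FPKM on high-fat and 153, 181 and 229 on low-fat (log2 change 0.34, SE 0.07, adjusted p = 0.00284), and Proc had 309, 375 and 616 on high-fat and 214, 331 and 406 on low-fat (log2 change 0.28, SE 0.08, adjusted p = 0.0174). Masp1 was lower on high-fat, at 0, 4.30 and 8.65 FPKM against 2.27, 7.47 and 11.8 (log2 change -0.79, SE 0.27, adjusted p = 0.0439). The count of 3 was 10 without the high-fat control library 1 of ZT12, and lay between 2 and 6 in the other fits with 1 library left out. With upper quartile scaling 3 were lower and none higher, and in the values as deposited 8 were lower and 1 higher, with Masp1 the only call common to the 3 scalings. The median of all genes was -0.103 and -0.131. The call of Masp1 was lost in a fit of only the arms compared (adjusted p = 0.111), with no filter on low values (0.0783), with a pseudocount of 0.1 (0.0564) and without the libraries of low correlation (0.0658), and that of Proc in the last of these (0.101).

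Time of day changed 21 of 39 members in the profile averaged over the 4 offspring arms, against 48.1% of all genes. The median peak-to-trough fold of the members was 1.25, and 1.23 over all genes, so daily changes were small for most of them. The called members peaked at ZT0 in 5 cases, at ZT6 in 3, at ZT12 in 6 and at ZT18 in 7. The fibrinogen chains, Serpinf2 and Mbl1 were highest at ZT0, when lights come on. Fga had 662, 1118 and 2204 FPKM (lowest, median and highest of 12 libraries) at ZT0, 673, 923 and 1124 at ZT6, 162, 677 and 969.8 at ZT12 and 443, 751 and 1016 at ZT18, a 1.97-fold range (adjusted p = 0.000113). Fgg had medians of 1625, 1462, 1139 and 1383 FPKM at the same times (1.6-fold, adjusted p = 0.00116) and Fgb of 1982, 1768, 1366 and 1764 (1.54-fold, adjusted p = 0.000965). All 3 chains were lowest in median at ZT12, at the start of the dark phase. Serpinf2 followed with 266, 275, 185 and 207 FPKM (1.4-fold, adjusted p = 5.58e-07), its highest fitted mean being at ZT0 and its highest median at ZT6.

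**Figure D5:**
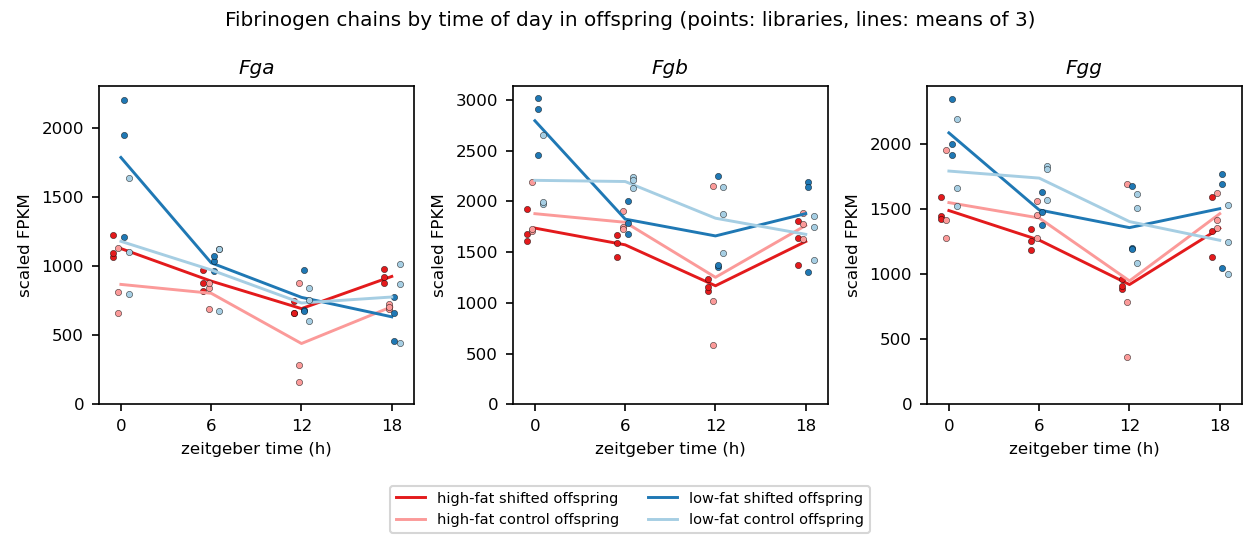
Scaled FPKM of the fibrinogen genes Fga, Fgb and Fgg at ZT0, ZT6, ZT12 and ZT18 in the 4 offspring arms, with a point per library and a line through the means of 3. Means fall between ZT0 and ZT12 in each arm, and the fall is largest in fold for Fga in low-fat shifted offspring.

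In the same averaged profile Proc and Kng1 peaked at ZT12, where the fibrinogen chains were lowest in median. Medians at the 4 times were 287, 267, 403 and 348 FPKM for Proc (1.38-fold, adjusted p = 7.61e-06). For Kng1 they were 1004, 1056, 1326 and 1194 (1.29-fold, adjusted p = 0.00131). Kng2 (1.3-fold) and C8g (1.33-fold) also peaked at ZT12 in the average, while Kng2 peaked at ZT6 in high-fat shifted offspring. The complement genes C2, C6 and C8b peaked at ZT18. C2 had medians of 28.2, 29.8, 41.8 and 44.8 FPKM (1.43-fold, adjusted p = 4.35e-05). C6 had 87.8, 67.8, 75.0 and 93.8 FPKM (1.4-fold, adjusted p = 0.00458), and C8b (1.45-fold, adjusted p = 0.0386) lost its call in 19 of 48 fits with 1 library left out. Masp1 peaked at ZT6 (1.94-fold, adjusted p = 0.0239), a call that was lost with a pseudocount of 0.1 (adjusted p = 0.119). In the values as deposited the calls of Kng1 (adjusted p = 0.0941), C2 (0.0584) and C8b (0.146) were lost. That of C8b was also lost with upper quartile scaling (0.066) and with no filter on low values (0.0685). The call of C8g was lost with GC and length trends removed (0.0719).

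Within single arms fewer members passed. In low-fat shifted offspring 4 did, against 20.5% of all genes. Masp1 had 21.1, 3.99 and 21.6 FPKM at ZT0, 14.6, 17.7 and 19.5 at ZT6, 4.92, 5.02 and 8.89 at ZT12 and 3.10, 3.66 and 1.65 at ZT18 (4.82-fold, adjusted p = 0.0194). Fga had 2204, 1210.0 and 1951 FPKM at ZT0 and 776, 461 and 665 at ZT18 (2.88-fold, adjusted p = 0.0168). Proc had 182, 196 and 231 FPKM at ZT6 and 424, 418 and 452 at ZT12 (2.18-fold, adjusted p = 0.0193), with no overlap between these times. C6 was the fourth (1.95-fold, adjusted p = 0.0408). The count was 1 without the libraries of low correlation, 2 of which belong to this arm, and 2 to 9 with 1 library left out.

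In high-fat shifted offspring 13 members passed, against 30.2% of all genes. Masp1 (1.78-fold), Fga (1.6), Fgg (1.59) and Fgb (1.46) peaked at ZT0, with Fga at 1224, 1068 and 1093 FPKM at ZT0 and 663, 752 and 665 at ZT12. Klkb1 had 72.6, 72.5 and 73.9 FPKM at ZT6 and 48.7, 47.5 and 49.1 at ZT18 (1.52-fold, adjusted p = 0.0019), a separation wider than the spread at either time. Serpinf2 (1.44-fold), Kng2 (1.38), Serpind1 (1.29) and F13b (1.28) also peaked at ZT6. With no filter on low values the calls of Masp1 (adjusted p = 0.0943) and Fgb (0.0719) were lost. With upper quartile scaling those of Masp1 (0.053), Kng2 (0.0558) and F13b (0.0506) were lost. The count ran from 4 to 22 with 1 library left out, lowest without library 1 of ZT0 or of ZT12 and highest without library 3 of ZT18. In high-fat control offspring no member passed, against 0.767% of all genes, with 5 at an unadjusted p under 0.05, and in low-fat control offspring C2 did (1.76-fold, adjusted p = 0.027), against 14.4% of all genes.

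In control mothers Fgg alone passed, against 4.25% of all genes. It had 2995, 2619 and 2113 FPKM at ZT0, 2824, 2840.0 and 2457 at ZT6, 1701, 1788 and 1808 at ZT12 and 1783, 1554 and 2089 at ZT18 (1.53-fold, adjusted p = 0.0446). Fga and Fgb were also highest at ZT6 in mean and missed the threshold (adjusted p = 0.052 and 0.0984), and the call of Fgg ended when any of 9 of the 12 libraries was left out, and with the replicate block. No member passed in shifted mothers, against 0.67% of all genes and with none at an unadjusted p under 0.05. In fetuses no gene at all passed under either schedule, and 1 and 2 members of shifted and control fetuses had an unadjusted p under 0.05. The daily profile of no member differed between shifted and control, against 1.65% of all genes in mothers, 0% in fetuses, 0.046% in low-fat and 0% in high-fat offspring. Members at an unadjusted p under 0.05 numbered 0, 0, 5 and 3 in those tests.

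Further genes of the 2 pathways and 16 regulators were read from lists. Unlike the members, they were not followed under the other scalings and settings. In fetuses against mothers 9 of 22 tested coagulation genes were higher and 13 lower under the shifted schedule, and 8 and 13 under the control schedule, against 84.6% and 85.7% of all genes called in either direction. F13a1, the catalytic subunit of factor XIII, which blood cells and macrophages make, changed by 2.21 (SE 0.06, adjusted p = 6.99e-18) and 2.18 (SE 0.06, adjusted p = 2.75e-17), and Anxa2, a surface receptor for plasminogen activation, by 3.38 (SE 0.13, adjusted p = 1.38e-15) and 3.38 (SE 0.08, adjusted p = 3.75e-19). The complement C5 gene Hc changed by -2.46 (SE 0.08, adjusted p = 9.04e-17) under the control schedule, and clusterin (Clu), an inhibitor of the terminal complex, by -4.21 (SE 0.12, adjusted p = 1.0e-17) and -3.97 (SE 0.13, adjusted p = 1.55e-16). Esr1, the oestrogen receptor, changed by -3.22 (SE 0.09, adjusted p = 7.16e-18) under the shifted schedule. Megakaryocyte markers were higher in fetuses for 6 of 6 genes, with a summed median of 231.8 FPKM in shifted and 233.1 in control fetuses, against 3.43 and 2.66 in shifted and control mothers. In shifted mothers Cebpd, an acute phase transcription factor, was lower (-0.43, SE 0.07, adjusted p = 0.00221), Cd59a, which blocks the pore, was higher (0.35, SE 0.07, adjusted p = 0.00547), and so was Esr1 (0.42, SE 0.11, adjusted p = 0.0226). In shifted fetuses Cebpd was lower too (-0.77, SE 0.12, adjusted p = 0.00303), while Serpinb2 (0.31, SE 0.07, adjusted p = 0.0221) and Cd55 (0.26, SE 0.06, adjusted p = 0.0259) were higher. In low-fat offspring none of the 54 tested genes of these lists was called for the schedule, with 4 at an unadjusted p under 0.05.

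In high-fat offspring 13 of 23 other complement genes differed with the maternal schedule, 7 higher and 6 lower, and 10 of 16 regulators, 7 higher and 3 lower, against 48.1% of all genes (26.3% higher and 21.9% lower). Of 15 other coagulation genes only 4 differed, 1 higher and 3 lower. The IL-6 signalling chain Il6st changed by 0.52 (SE 0.09, adjusted p = 2.52e-05), the receptor Il6ra by 1.19 (SE 0.21, adjusted p = 2.86e-05) and the lipid-sensing receptor Ppara by 0.62 (SE 0.13, adjusted p = 0.000142). Whether these changes hold under other scalings or with GC and length trends removed was not tested. Some calls of members in this comparison did not. On high-fat against low-fat, offspring of shifted mothers had more Cfd, the alternative pathway protease also called adipsin (3.08, SE 0.41, adjusted p = 2.1e-06), and less C1ra (-0.51, SE 0.08, adjusted p = 5.03e-05), a protease of the C1 complex, and more Ppara (0.57, SE 0.13, adjusted p = 0.00141). The interaction of schedule and diet was called for 8 of 23 other complement genes, 4 in each direction, against 24.2% of all genes, among them the lectin Colec11 at -0.46 (SE 0.12, adjusted p = 0.00767). It was called for 2 of 15 other coagulation genes, both negative, and for 5 of 16 regulators, 3 positive and 2 negative. In offspring of control mothers the diet raised Cebpd (0.66, SE 0.12, adjusted p = 0.000565), Cebpb (1.07, SE 0.23, adjusted p = 0.00256) and the lectin Fcna (0.64, SE 0.14, adjusted p = 0.00303). Time of day changed 12 of 16 regulators in the offspring average, 7 of 15 other coagulation genes and 7 of 23 other complement genes, against 48.1% of all genes. The smallest p among them belonged to the clock genes Dbp (26.4-fold, peak at ZT6, adjusted p = 2.70e-20) and Arntl (5.33-fold, peak at ZT0, adjusted p = 1.15e-17) and to Cebpd (1.86-fold, adjusted p = 2.37e-06).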

How the data were processed

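Liver poly(A) RNA (TRIzol, Illumina TruSeq stranded mRNA, per the labels' protocols) was measured in 96 libraries, 3 for each of 32 groups of arm and time. The deposited values are FPKM per gene, in 1 table per arm. TopHat2 2.1.1, Cufflinks 2.2.1 and the mm10 build are named in the submitters' processing notes, while the sources used here do not give the gene annotation or filtering. Read counts were not used here, so depth and counting error are unknown.

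Of 24883 table entries, 817 that shared 280 symbols were left out. Printed FPKM were divided by median-of-ratios factors over all 96 libraries, and each fit was rescaled over its own libraries. Genes at 1 FPKM or more in at least 3 libraries of a fit were tested with limma 3.58.1 (R 4.3.3) on log2(FPKM + 1), which understates changes of low genes, with 1 mean per arm and time, a variance trend and Benjamini-Hochberg adjustment over all genes tested. Changes of level are contrasts averaged over the 4 times, time of day is an F test with 3 df, and all tests are two-sided. The 3 libraries of a group were treated as independent, and fetuses and mothers as unpaired. The light schedule was given to mothers, and libraries of 1 litter would not be independent for its effect. Scripts were tested on simulated data. Called members are named in order of p, at most 12 per comparison, or the 3 of smallest p where none was called. For time of day the order is by peak-to-trough fold. Other genes are named as the 3 called genes of smallest p among the further pathway genes and regulators. Some genes that this rule names are not reported here. The members and lists were chosen with earlier results of these data known. Positions, GC and length came from GENCODE M21, and promoters were searched with Python 3.11.15.

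Alternatives were upper quartile scaling, values as deposited, hepatocyte-marker scaling, no filter on low values, a pseudocount of 0.1, a replicate block, fits of only the arms compared, 24 h cosine terms, removal of GC and length trends, leaving out the 5 offspring libraries with a median correlation under 0.95, and leaving out each library in turn. The GC and length correction of time results, alone or together with leaving out libraries, was added after seeing the data.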

Additional observations from a re-analysis of the deposited data

Results flagged for a closer look

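The effect of the maternal schedule differed between the high-fat and the low-fat diet for 14 members, by the interaction test in limma on log2(FPKM + 1). The difference of the 2 effects (high-fat minus low-fat) was positive for Masp1 at 1.52, F13b at 0.96 and F5 at 0.64. It was negative for Proc at -0.65, F11 at -0.52, Kng1 at -0.50, Vtn at -0.47 and F10 at -0.46. It was also negative for C8g at -0.44, Ahsg at -0.42, C2 at -0.39, Mbl1 at -0.37, Kng2 at -0.32 and Serpinc1 at -0.27. Among all genes tested 24.2% were called for this interaction. Upper quartile scaling and the values as deposited each gave 4 positive and 1 negative call. Only F13b, F5, Masp1 and Proc were called under all 3 scalings. Of the 12 with the smallest p, with GC and length trends removed the call ended for C8g (-0.19), C2 (-0.325) and Mbl1 (-0.25). Without the libraries of low correlation it ended for C2, C8g, Mbl1 and F11, and with no filter on low values for C2 and F11. With 1 of the 48 offspring libraries left out, the call ended in 24 fits for F11, in 20 for Serpinc1 and in 15 for C2.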

How the results depend on the processing

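Counts of called members moved by over 1.5 times under 8 of the settings, and under none of the other 3 (a pseudocount of 0.1, a fit of only the arms compared and hepatocyte-marker scaling). With values as deposited they were 9 for diet in offspring of control mothers, 5 for the interaction, 0 for the schedule in mothers, 2 for time in control mothers and 14 for time in low-fat shifted offspring. With upper quartile scaling they were 9 for diet in offspring of shifted mothers, 5 for the interaction, 2 for time in control mothers, 7 in high-fat shifted, 2 in low-fat control and 10 in low-fat shifted offspring. With no filter on low values time gave 0 in control mothers and 0 in low-fat control offspring, and cosine terms gave 3 and 3. With GC and length trends removed, time gave 2 in control mothers and 10 in low-fat shifted offspring. Without the libraries of low correlation the interaction of time and schedule in low-fat offspring gave 1, and time gave 3 in low-fat control and 1 in low-fat shifted offspring. With both changes together the interaction of schedule and diet gave 8 and time in low-fat control offspring 3. With 1 library left out, counts ran from 2 to 10 for diet in offspring of control mothers, 13 to 18 for diet in offspring of shifted mothers, 9 to 16 for the interaction, 1 to 3 for the schedule in mothers and 16 to 20 in high-fat offspring, and 0 to 3 for time by schedule in low-fat offspring. For time they ran from 18 to 27 in the offspring average, 0 to 3 in control mothers and in high-fat control offspring, 4 to 22 in high-fat shifted, 0 to 5 in low-fat control and 2 to 9 in low-fat shifted offspring. For fetuses against mothers they were 36 to 39 under the shifted and 35 to 37 under the control schedule. Hepatocyte-marker scaling turned the fetal change under the control schedule to 0.65 for Serpind1, 0.35 for Cfi, 0.33 for Serpinc1, 0.60 for Pros1, 0.40 for C8a and 0.57 for C6, and under the shifted schedule to 0.045 for Mbl1, 0.32 for Serpinc1, 0.82 for Klkb1, 0.56 for Cfi and 0.56 for Vtn. The cause of these moves was not tested.

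The labels number replicates alike in all groups, but libraries of one number did not deviate together, with 0 to 3 of 12 pairs of a comparison correlated above 0.1. The fit with the replicate block gave 0 members for time in control mothers and 8 in high-fat shifted offspring, and the other counts of members stayed within 1.5 times. Depth could not be set against any of these values.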
